A study of Saccharomyces cerevisiae with 4 samples.

Results

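The 32 budding yeast genes described here act in protein entry into the endoplasmic reticulum (ER), in folding and glycosylation there, and in the disposal of misfolded proteins. They were taken by symbol from the array annotation, and each of the 32 had exactly 1 probe set, so that 32 of the 5470 tested probe sets (5425 genes) are at issue. All 32 passed the filter on dim probe sets, and their signals lay between 170 and 6741. By step they comprise 7 genes of the translocon, 8 chaperones and co-chaperones, 4 genes of oxidative folding, 6 of N-glycosylation, 2 of O-mannosylation, 3 of degradation and 2 of the unfolded protein response pathway.

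The comparison was between 2 cultures labelled as carrying an RNase H1 expression plasmid (p425-GPD-RNase H1) and 2 labelled as carrying the plasmid without insert (p425-GPD). Both groups were the haploid strain BY4741 of mating type a, with the alleles ura3∆0, leu2∆0, his3∆1 and met15∆0, and both plasmids carry LEU2. Cells grew at 30 °C in synthetic medium lacking leucine and were taken in mid-log phase, and total RNA was hybridised to Affymetrix Yeast Genome 2.0 arrays. RNase H1 degrades RNA paired with DNA; the labels do not name the species of the insert, and the GPD promoter on the plasmid is constitutive.

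Secretory and membrane proteins enter the ER through the Sec61 channel and are kept soluble and folded by the Hsp70 chaperone Kar2 and its partners, while Pdi1 and its relatives form disulfide bonds. Sugars are attached to asparagine by oligosaccharyltransferase and to serine or threonine by the O-mannosyltransferases. Proteins that fail to fold are passed back to the cytosol through the Hrd1 ligase complex. Unfolded proteins activate Ire1, which starts the splicing of HAC1 mRNA, and the Hac1 factor then induces many genes of all these steps.

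Signal sums per array lay between 6889764 and 7097920. The probe set of yeast RNH1 did not separate the groups, reading 320 and 292 with the empty vector and 303 and 307 with the RNase H1 plasmid (adjusted p = 0.990), so it gives no check of the plasmid unless the insert is the yeast gene. URA3 (0.183 to 4.04) and MET17 (2.33 to 9.02) were low in all 4 arrays, and LEU2 was high in all 4 (10348 to 12870). HIS3 was not low in any of the 4 (3288 to 4098), although the strain is labelled his3∆1, and the reason was not tested. The 7 genes specific to a cells had summed signals of 27588 and 27827 with the empty vector and of 14179 and 13322 with the RNase H1 plasmid. In limma 3 of the 7 passed as lower at an adjusted p under 0.05, against 0.347% of all probe sets. In all 7 both arrays labelled RNase H1 lay below both controls, against 30.8% of all probe sets. The 4 genes specific to alpha cells summed to 438 and 490 with the empty vector and to 675 and 362 with the RNase H1 plasmid. In limma 0 of the 4 passed. At an unadjusted p under 0.05, 1 was higher, against 11.0% of all probe sets. This was STE3, with 33.6 and 41.5 against 138 and 75.6. SAG1, MF(ALPHA)1 and MF(ALPHA)2 had lower means with the RNase H1 plasmid, and their groups overlapped. The 3' to 5' signal ratio of actin, a measure of RNA integrity and amplification, was 1.34 in both empty vector arrays and 1.68 and 1.48 in arrays 1 and 2 labelled RNase H1.

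Most of the ER genes had somewhat lower signals in the arrays labelled RNase H1, but no single gene passed the test. Of the 32 log2 differences (RNase H1 vector minus empty vector), 28 lay below 0, against 51.4% of all tested probe sets. Their median was −0.28, a signal lower by 17.5%, while the median over all tested probe sets was −0.02. The lowest was that of EUG1 (−0.99) and the highest that of IRE1 (0.66). All values are relative signals from scaled arrays of whole cultures, so fewer cells with a transcript and less of it per cell cannot be told apart.

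In limma, 0 of the 32 genes passed as higher and 0 as lower at an adjusted p under 0.05, where the shares over all probe sets were 1.13% and 0.347%. At an adjusted p under 0.10, 2 genes were lower (PDI1 and OST1) and 0 higher, against 3.16% lower and 3.51% higher over all probe sets. At an unadjusted p under 0.05, 7 were lower (21.9%, against 12.7% of all) and 2 higher (6.25%, against 11.0%). In 22 genes (68.8%) both arrays labelled RNase H1 lay below both empty vector arrays, against 30.8% of all probe sets, and in 2 genes (ERO1 and IRE1) both lay above, against 28.0%. The groups overlapped in the other 8: SEC62, SSS1, SIL1, LHS1, OST2, HRD1, HRD3 and HAC1. A fit without array 1 labelled RNase H1 called 19 members lower and 3 higher, against 29.3% lower and 21.6% higher over all probe sets. A fit without array 2 called 7 and 2, against 15.2% and 17.0%. Both fits called PDI1, EUG1, OST1, SWP1, SEC61 and CNE1 lower and ERO1 and IRE1 higher. In such fits the lone array is assumed to vary as little as the controls do, so these counts are no sign of stability.

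**Figure D1:**
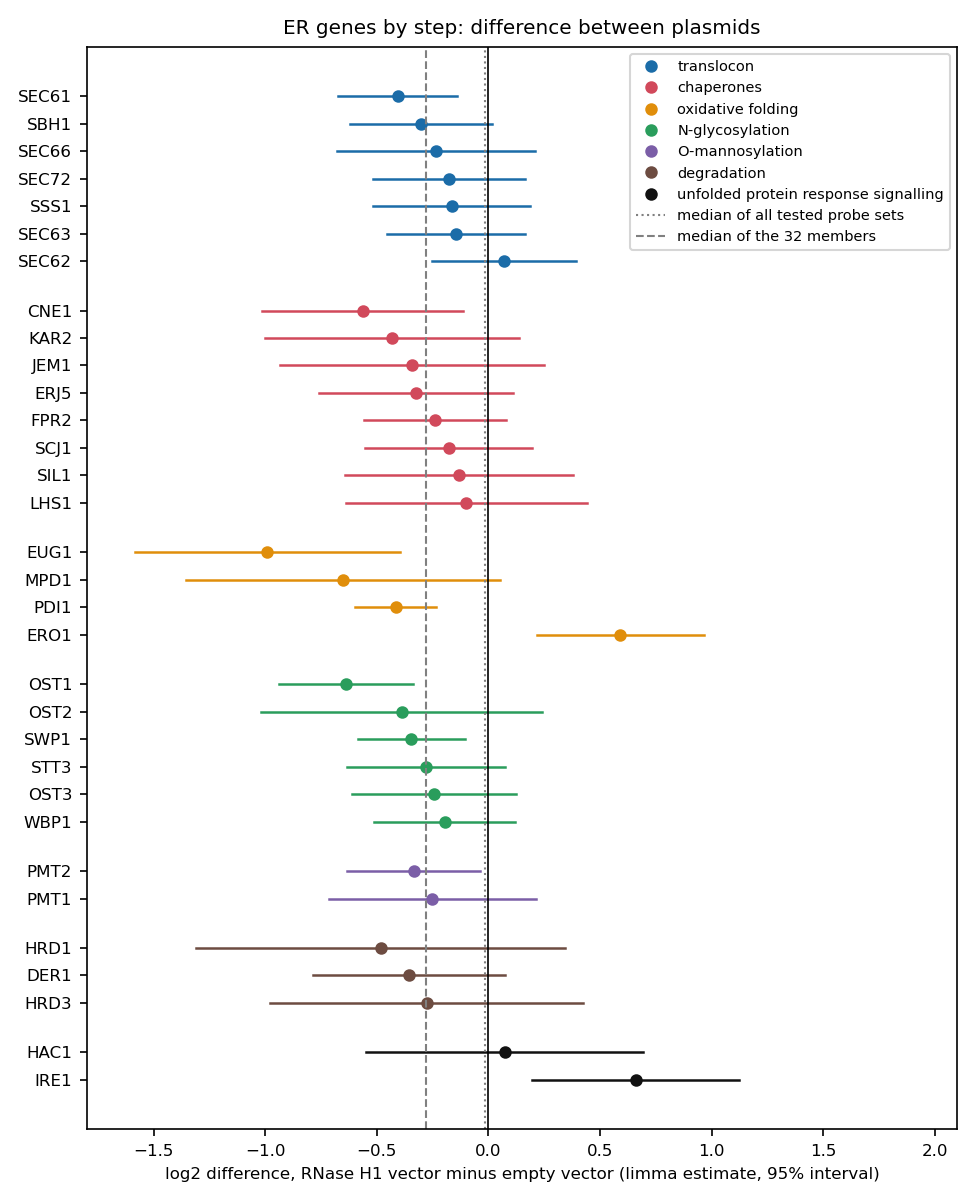
Log2 difference between plasmids for each of the 32 genes, by step (points, limma estimate; lines, 95% interval; 2 arrays a group). Points lie below 0 for 28 genes, and the members' median (dashed, −0.28) is below that of all tested probe sets (dotted, −0.02); ERO1 and IRE1 are the 2 genes whose interval lies wholly above 0.

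At the translocon, 6 of 7 genes had lower mean signals with the RNase H1 plasmid, against 51.4% of all probe sets. The median log2 difference was −0.18. SEC61 (YLR378C), the channel-forming subunit, had signals of 4510 and 4946 with the empty vector and 3784 and 3351 with the RNase H1 plasmid. Both of the latter were below both controls, a 1.33-fold lower mean (log2 −0.41 ± 0.10 SE, n = 2 against 2, adjusted p = 0.118). SBH1 (YER087C-B), the beta subunit of the channel, had 2852 and 2825 against 2505 and 2120 (−0.30 ± 0.12, adjusted p = 0.224). Its groups did not overlap, and array 2 was the lower of the pair.

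The gamma subunit gene SSS1 had 4213 and 3966 against 4091 and 3249, so that array 1 lay between the controls and only array 2 lay under them (log2 −0.17 ± 0.13). The remaining 4 genes encode the complex that serves translocation after synthesis is complete. SEC63, its J-domain partner of Kar2, had signals of 1592 and 1625 against 1435 and 1473 (−0.15 ± 0.12). SEC66 had 1230 and 1338 against 976 and 1220 (−0.23 ± 0.17), and SEC72, the other accessory subunit, had 1380 and 1381 against 1174 and 1271 (−0.18 ± 0.13). These 3 were lower in both arrays, each by less than 1.5-fold and with an adjusted p above that of SEC61. SEC62, the translocon gene with a mean above the controls, had 2100 and 2112 against 2050 and 2383 (0.07 ± 0.12, adjusted p = 0.755), with array 1 below the controls and array 2 above them.

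Among the chaperones, all 8 mean signals were lower, against 51.4% of all probe sets, and the median log2 difference was −0.28. In 6 of the 8 both arrays labelled RNase H1 lay below both controls, against 30.8% of all probe sets. CNE1 (YAL058W), the yeast relative of calnexin, which binds glycoproteins, had 502 and 557 with the empty vector and 369 and 347 with the RNase H1 plasmid. The 2 arrays of each group lay close together, and the mean was 1.48-fold lower (log2 −0.56 ± 0.17, adjusted p = 0.162). KAR2 (YJL034W), the Hsp70 of the ER lumen, had 6387 and 6741 against 6077 and 3894. Array 1 was just under the controls (−0.11) and array 2 far under them (−0.75), so that the mean difference of −0.43 ± 0.22 (adjusted p = 0.295) had a 95% interval that reached up to 0.14.

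The J-domain proteins that stimulate Kar2 differed among themselves in size. ERJ5 had 626 and 558 against 474 and 471, a near-equal difference in both arrays (log2 −0.32 ± 0.17, adjusted p = 0.302). JEM1 had 255 and 235 against 219 and 170 (−0.34 ± 0.23), and SCJ1 had 1526 and 1428 against 1211 and 1406 (−0.18 ± 0.14), where array 2 was just below the controls. The nucleotide exchange factors of Kar2 did not separate the groups. SIL1 had 474 and 597 against 507 and 465 (−0.13 ± 0.20), and LHS1, itself of the Hsp70 family, had 769 and 571 against 633 and 605 (−0.10 ± 0.21). In LHS1 the controls differed from each other by more than the arrays labelled RNase H1 did. FPR2, a prolyl isomerase, had 2073 and 1930 against 1776 and 1618 (−0.24 ± 0.12, adjusted p = 0.298), with no overlap. EUG1 and FPR2 are neighbours on chromosome IV in the R64 annotation.

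Oxidative folding held the most divergent values. PDI1, EUG1 and MPD1 were lower in mean signal and the oxidase gene ERO1 higher, and none of the 4 passed the threshold. In each of the 4 genes the arrays of the 2 plasmids were fully separated, as they were in 58.8% of all probe sets. PDI1 (YCL043C), the essential protein disulfide isomerase, had 6571 and 6593 with the empty vector and 5115 and 4759 with the RNase H1 plasmid, and the smallest adjusted p of the 32 genes (1.33-fold lower, log2 −0.42 ± 0.07, adjusted p = 0.0745). The controls were nearly equal and both other arrays lay clearly under them.

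EUG1 (YDR518W), a non-essential relative of PDI1, had 1209 and 1310 against 764 and 525. Both arrays labelled RNase H1 were far below the controls, and the mean was 1.99-fold lower (log2 −0.99 ± 0.23, 95% interval −1.58 to −0.40, adjusted p = 0.105). MPD1 (YOR288C), another relative, had 720 and 786 against 605 and 379 (1.57-fold lower, −0.65 ± 0.27, adjusted p = 0.232), with array 2 well below array 1. ERO1 (YML130C), the oxidase that passes disulfides to Pdi1, had 1708 and 1635 against 2269 and 2792. Both arrays were above the controls, a 1.51-fold higher mean (0.59 ± 0.14, 95% interval 0.22 to 0.96, adjusted p = 0.113).

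**Figure D2:**
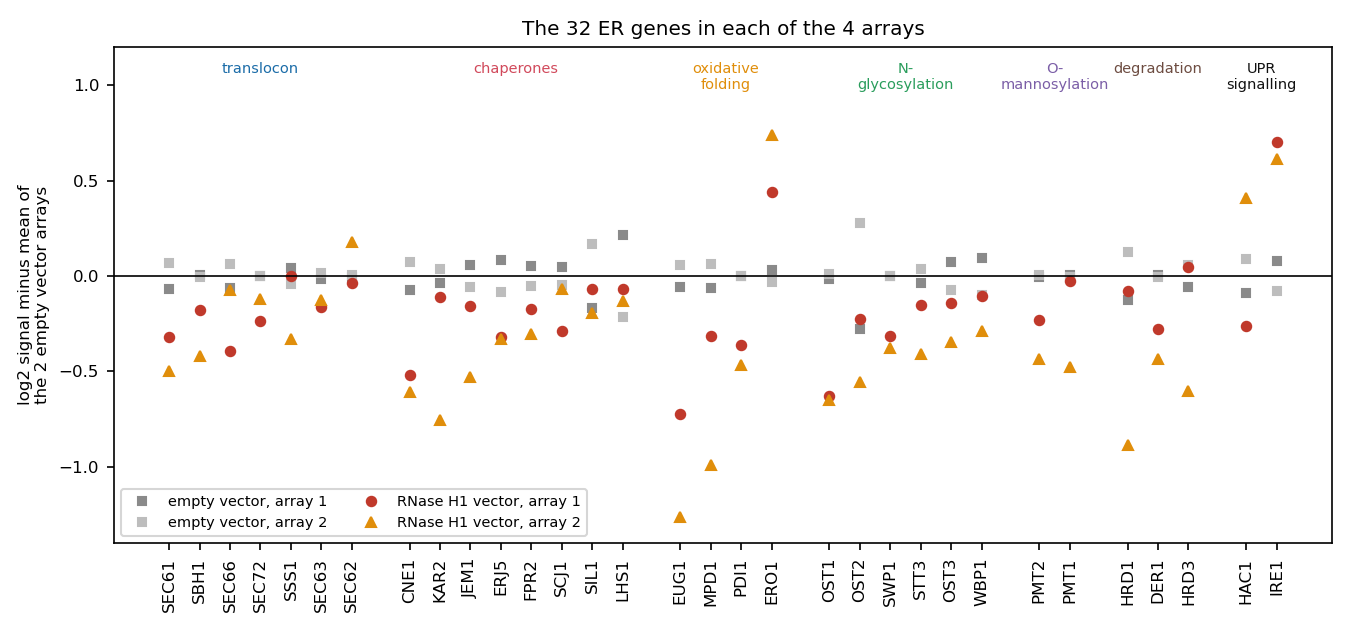
Log2 signal of each gene in each of the 4 arrays, minus the mean of the 2 empty vector arrays (squares, empty vector; circles and triangles, arrays 1 and 2 labelled RNase H1). In 22 genes both coloured symbols lie below both squares and in 2 genes, ERO1 and IRE1, above; HAC1, SEC62, HRD3 and SSS1 have their coloured symbols on opposite sides of 0.

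All 6 subunit genes of oligosaccharyltransferase had lower mean signals, with a median of −0.31. OST1 (YJL002C), one of these subunit genes, had 1993 and 2029 against 1302 and 1282. The arrays of each group were within a few percent of each other, and the mean was 1.56-fold lower (log2 −0.64 ± 0.12, 95% interval −0.94 to −0.34, adjusted p = 0.0821). SWP1 (YMR149W), an essential subunit, had 3101 and 3093 against 2487 and 2389 (1.27-fold lower, −0.35 ± 0.09, adjusted p = 0.128), also with tight pairs.

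STT3 (YGL022W), the catalytic subunit, had 2148 and 2254 against 1982 and 1658 (log2 −0.28 ± 0.14, adjusted p = 0.282). OST3, which has a thioredoxin-like domain, had 1842 and 1658 against 1584 and 1375 (−0.24 ± 0.14), and WBP1 had 3574 and 3124 against 3104 and 2739 (−0.20 ± 0.12). In these 3 the groups did not overlap, and array 2 was the lowest of the 4. OST2 had 1408 and 2072 with the empty vector and 1462 and 1163 with the RNase H1 plasmid, so that the controls themselves differed by more than the other pair and the groups overlapped (−0.39 ± 0.24).

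The O-mannosyltransferase genes PMT1 and PMT2, whose products act as a pair, were both lower in mean. PMT2 (YAL023C) had 2895 and 2925 against 2479 and 2150 (log2 −0.33 ± 0.11, adjusted p = 0.185). PMT1 had 2370 and 2346 against 2316 and 1693 (−0.25 ± 0.18, adjusted p = 0.435). Array 1 lay just under the controls for PMT1, and array 2 well under them for both genes.

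In the degradation step, DER1 (YBR201W), a membrane protein of the export channel, had 619 and 616 against 510 and 457 (log2 −0.36 ± 0.16, adjusted p = 0.266), with no overlap. HRD1, the ubiquitin ligase, had 548 and 653 against 566 and 323 (−0.48 ± 0.32), and its partner HRD3 had 460 and 498 against 494 and 315 (−0.28 ± 0.27). For both, array 1 lay between the 2 controls and array 2 far below them.

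Of the 2 genes of the signalling pathway, IRE1 had a higher signal in both arrays labelled RNase H1, and HAC1 a higher one in array 2 and a lower one in array 1. IRE1 (YHR079C), the kinase and endonuclease that senses unfolded proteins, had 306 and 275 with the empty vector and 473 and 444 with the RNase H1 plasmid. Both arrays were above both controls, a 1.58-fold higher mean (log2 0.66 ± 0.18, 95% interval 0.20 to 1.13, adjusted p = 0.130). HAC1 (YFL031W) had 3188 and 3615 against 2834 and 4503 (0.07 ± 0.24, 95% interval −0.55 to 0.69, adjusted p = 0.873). Array 1 was the lowest of the 4 and array 2 the highest, and the values do not tell spliced from unspliced HAC1 mRNA.

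**Figure D3:**
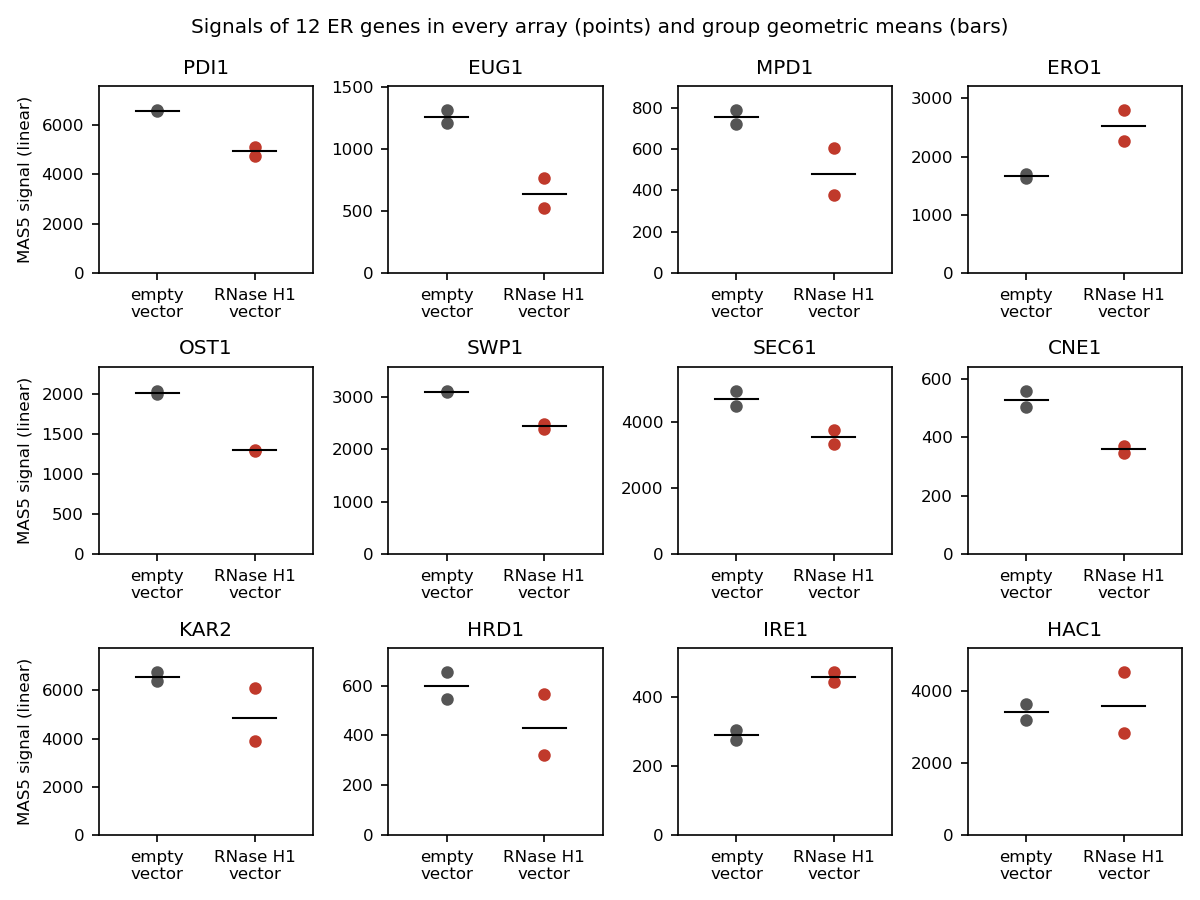
MAS5 signals on a linear scale from 0 for 12 of the genes, each array a point and each group's geometric mean a bar. PDI1, OST1, SWP1, SEC61 and CNE1 have tight pairs with the RNase H1 plasmid below the empty vector, ERO1 and IRE1 lie above it, and KAR2, HRD1, MPD1 and HAC1 have 1 array labelled RNase H1 far from the other.

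The 2 arrays labelled RNase H1 differed in how far the ER genes lay from the controls. Measured from the same control mean, the median over the 32 genes was −0.18 in array 1 and −0.39 in array 2, while over all probe sets it was 0.04 and −0.08. In each array 28 of the 32 lay below 0, and 26 lay below 0 in both. Over all probe sets 45.5% lay below 0 in array 1, 56.2% in array 2 and 35.4% in both. Array 2 was the lower of the pair in 25 of the 32 genes and in 59.9% of all probe sets. The pair was over 1.5-fold apart in 5 of the 32 genes (KAR2, MPD1, HRD1, HRD3 and HAC1), against 28.3% of all probe sets, and the empty vector pair in 0 of 32, against 3.33% of all.

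By step, the medians in arrays 1 and 2 were −0.18 and −0.13 for the translocon and −0.17 and −0.32 for the chaperones. They were −0.34 and −0.73 for oxidative folding, −0.19 and −0.39 for N-glycosylation, −0.13 and −0.46 for O-mannosylation and −0.08 and −0.60 for degradation. For the unfolded protein response pair they were 0.22 and 0.51. The median was thus lower in array 2 in each step but the translocon, where 4 of 7 genes had the higher signal in array 2, and the unfolded protein response pair, where 1 of 2 did. A list of 20 genes of the general stress response had medians of 0.45 in array 1 and −1.60 in array 2, and a list of 18 ribosome biogenesis genes had 0.15 and 0.94. The part of these array differences, and of the actin ratio, in the ER gene values was not tested.

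**Figure D4:**
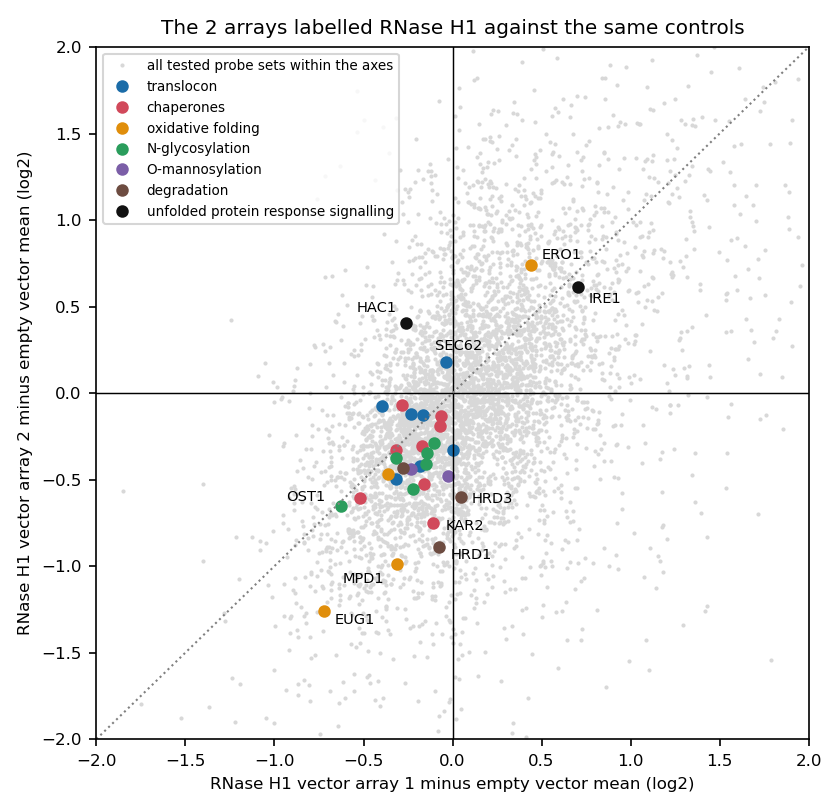
Log2 signal of array 1 (horizontal) and array 2 (vertical) labelled RNase H1, each minus the mean of the empty vector arrays, for the 32 genes by step over all tested probe sets within the axes (grey); both axes share the same controls. Most members lie in the lower left, 25 of 32 below the diagonal; ERO1 and IRE1 are at the upper right, and HAC1 at the upper left.

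Further genes of the same steps were read from 5 lists, which gave 63 genes with a probe set. Among these 63, 0 passed as higher and 0 as lower at an adjusted p under 0.05, against 1.13% and 0.347% over all probe sets. Of their log2 differences, 51 lay below 0 (81.0%, against 51.4% of all), and the median was −0.28. At an adjusted p under 0.10, 6 were lower and 0 higher, against 3.16% and 3.51% over all probe sets. At an unadjusted p under 0.05, 17 were lower and 0 higher, against 12.7% and 11.0%.

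The other N-glycosylation genes, most of which build the lipid-linked sugar chain, had a median of −0.39. Of these 20 genes, 18 lay below 0, against 51.4% of all probe sets. At an unadjusted p under 0.05 in limma, 9 of the 20 were lower and 0 higher, against 12.7% and 11.0% of all. ALG13 (YGL047W), a subunit of the enzyme that adds the second sugar of the chain, had 634 and 727 with the empty vector and 297 and 212 with the RNase H1 plasmid. Its mean was 2.70-fold lower (log2 −1.44 ± 0.24, adjusted p = 0.0730), with both arrays far under the controls. SEC53, the phosphomannomutase that supplies mannose precursors, had 6602 and 6495 against 4901 and 4815 (−0.43 ± 0.06, adjusted p = 0.0598), the smallest adjusted p of the 63. ALG12, a mannosyltransferase, had 854 and 868 against 496 and 421 (−0.91 ± 0.17, adjusted p = 0.0857). PSA1, which makes GDP-mannose (−0.30 ± 0.06), and ALG5, which makes dolichol-phosphate glucose (−0.71 ± 0.14), also had an adjusted p under 0.10 and were named after their values were seen.

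The other targeting and translocation genes had a median of −0.15, with 14 of 17 below 0, against 51.4% of all probe sets. GET3, the ATPase that delivers tail-anchored proteins, had 3640 and 3670 against 2564 and 2512 (log2 −0.53 ± 0.09, adjusted p = 0.0718). SSH1, a second Sec61-like channel, was at −0.27 ± 0.08 and GET1, a membrane receptor for Get3, at −0.36 ± 0.14. In 9 of the 17 genes both arrays labelled RNase H1 lay below both controls, against 30.8% of all probe sets. GET3, SSH1 and GET1, named for their small p, are among these. None of the 3 passed the threshold. In the list of other ER folding genes, 6 of 9 (66.7%) lay below 0, against 51.4% of all probe sets. ROT2 (−0.55 ± 0.14), the catalytic subunit of glucosidase II, MPD2 (−0.87 ± 0.28), a further PDI1 relative, and CPR5 (−0.36 ± 0.12), a cyclophilin, did not pass either.

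All 4 other O-mannosyltransferase genes lay below 0, against 51.4% of all probe sets. PMT4 was at −0.41 ± 0.15, PMT3 at −0.62 ± 0.37 and PMT6 at −0.42 ± 0.30. Of the other degradation genes, 9 of 13 (69.2%) lay below 0, against 51.4% of all probe sets. Those with the smallest p were MNS1, a mannosidase that trims glycans in the ER (−0.93 ± 0.25, adjusted p = 0.127), UBC7, a ubiquitin-conjugating enzyme (−0.45 ± 0.15), and CUE1, which anchors Ubc7 to the membrane (−0.29 ± 0.16).

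**Figure D5:**
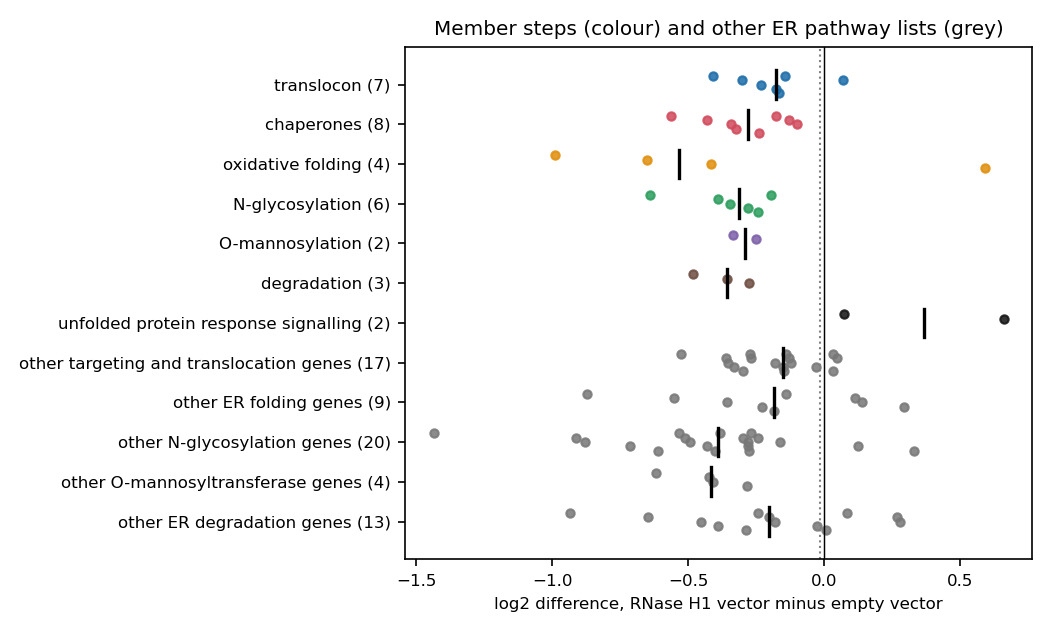
Log2 differences between plasmids for the member genes by step (colour) and for 5 lists of other genes of these steps (grey); black bars are list medians, the dotted line is the median of all tested probe sets and the number of genes is in brackets. Each median lies below 0 except that of the unfolded protein response pair, and the lowest point is ALG13 at −1.44.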

How the data were processed

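The deposited table holds 1 signal per probe set and array, a linear intensity. Per the submitters' processing notes, the authors used Affymetrix Expression Console with MAS5 to make these intensity values; their scaling target is not known here. The number of arrays limits the precision. Genes were named from the platform annotation, updated to the R64 annotation (12 symbols). Of 10928 probe sets, 5498 had 1 S. cerevisiae gene. Those with a mean log2 signal above the 75th percentile of the 1746 S. pombe probe sets (a signal of 2.13) were tested, 5470 in all. Log2 signals were compared with limma 3.58.1 in R 4.3.3 (lmFit, eBayes with an intensity trend, no pseudocount), two-sided, with Benjamini-Hochberg adjustment over all 5470; ± values are its standard errors. The limma fit was tried on simulated data, from which no values are given here. An array's groups come from its label. The labels call the replicates biological without saying more of their origin.

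The members, the other gene lists, the test and the alternatives were chosen with earlier results of these data known. All members are named. From each other list the 3 genes with the smallest p are named, and PSA1 and ALG5 were added after their values were seen. OST4, OST5 and OST6 were named as further subunit genes of oligosaccharyltransferase, also after their values were seen. Members past the threshold or among the 12 with the smallest p were to be given in full; array values are given for all. No list test was made.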

Additional observations from a re-analysis of the deposited data

How the results depend on the processing

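The count of 0 members higher and 0 lower was also obtained with quantile, median and loess scaling, without a dim filter or with stricter ones (the 95th percentile, a mean signal above 100), with pseudocounts of 16 and 64, without an intensity trend, with robust eBayes and without either control array. With an adjusted p under 0.10, 2 members were lower and 365 probe sets passed in all, against 81. Leaving out each array in turn gave 0 to 3 members higher, 0 to 19 lower and 64 to 2788 probe sets in all, the high ends without array 1 labelled RNase H1. Without an intensity trend 7 probe sets passed in all. The members' median stayed between −0.39 and −0.18 in all 16 fits other than the main one, and between −0.31 and −0.21 under the 3 scalings.

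The replicate block gave 0 members higher, 0 lower and 82 probe sets in all, and no call of a member differed. Deviations of same-numbered arrays correlated at −0.30 over the 5470 probe sets, and the labels give no pairing. The crossed block, chosen after seeing the data, called 1 member higher and 5 lower. Over all 5470 probe sets it called 937, of which 483 were higher and 454 lower. Since the block was chosen from these same values, no conclusion is drawn from its counts.

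Of the 32 members, 26 kept their sign in each of these fits. The others changed sign where an array was left out. Without control array 1, LHS1 was at 0.12 and HAC1 at −0.017, and without control array 2, SIL1 was at 0.035. Without array 2 labelled RNase H1, SSS1 was at 0.0012, SEC62 at −0.039, HRD3 at 0.046 and HAC1 at −0.26. Over the 4 fits that leave out an array, the ranges were −0.31 to 0.12 for LHS1, −0.30 to 0.035 for SIL1, −0.33 to 0.0012 for SSS1, −0.039 to 0.18 for SEC62, −0.60 to 0.046 for HRD3 and −0.26 to 0.41 for HAC1. The cause was not tested. Member signals were at least 170, against a dim limit of 2.13.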
